A study of Caenorhabditis elegans with 4 samples.

Results

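Isolated narrow COH-1 peaks are called peaks of ChIP signal for the cohesin subunit COH-1 that stand alone on a *Caenorhabditis elegans* chromosome. They were selected on values measured in the peak list deposited for the whole series: a place on chromosome I, II, III, IV, V or X, a width under 5000 bp, and more than 5000 bp to the nearest other peak of that list on both sides. A side with no further peak before the chromosome end counted as empty. The rule picked 720 of the 15765 peaks (4.57%), or 4.63% of the 15547 nuclear peaks under 5000 bp. The other 14827 peaks under 5000 bp are called non-isolated below. No peak of 5000 bp or more was isolated: each of the 214 had another peak within 1054 bp.

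The peaks come from chromatin immunoprecipitation and sequencing (ChIP-seq) with a rabbit polyclonal antibody to COH-1. All worms were hermaphrodites of the strain fem-2(b245), carrying that allele on chromosome III, labelled as young adults with a germline and kept at 20 °C. There were 2 ChIP samples, replicates 1 and 2, and 2 input samples of the same strain and stage, whose processed values were not analysed here. No wild-type worms and no other antibody were part of the design, so isolated peaks could be compared only with other peaks of the same worms. Besides the series list there is 1 list for each ChIP replicate, with 2587 peaks for replicate 1 and 3714 for replicate 2. Replicate peaks are typically wider than series peaks, with median widths of 1897 bp in replicate 1 and 1573 bp in replicate 2. None is narrower than 676 bp in replicate 1 or 647 bp in replicate 2. Read depth is unknown, since the lists hold no counts. The labels do not tie the replicates to separate cultures. Unlike any sample label, the title of the replicate 2 list includes csr1, a gene name that is left unexplained. Whether that list reflects COH-1 alone was not tested. No gene or sequence is given for a peak, because no genome of the lists' build (WormBase WS220) was used here.

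Cohesin is a ring of SMC proteins closed by a kleisin, and it holds sister chromatids together and takes part in folding chromosomes. COH-1 is one of the kleisins of *C. elegans*, distinct from REC-8 and the paralogues COH-3 and COH-4, which serve meiosis in the germline. In ChIP-seq, a protein that covers a long stretch is often called as many neighbouring peaks, whereas binding at one site gives one peak with empty flanks.

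Isolated peaks were far from anything else in the list. The distance to the nearest other peak had a median of 10937 bp, with 25% of isolated peaks beyond 22766 bp and the farthest at 192979 bp. On the farther side the median distance was 43540 bp (714 peaks with a neighbour on both sides). Within 50 kb to either side, an isolated peak had a median of 11 other series peaks against 26 for a non-isolated peak, and 38 isolated peaks had none. Just inside the distance limit were a peak at 11563660 to 11563880 on X (5002 bp to the nearest, score 6.08) and one at 3703929 to 3704204 on V (5004 bp, score 6.52). Just outside it were 12652373 to 12652533 on II (4998 bp, score 4.87) and 10298838 to 10299125 on III (4995 bp, score 3.18). These values place the limit in a continuum and were fixed by the rule, so they carry no test.

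Of the 720 peaks, 416 (57.8%) had another isolated peak as a direct neighbour in the list and 304 had none. Isolated neighbours came in 103 pairs, 40 groups of 3, 14 of 4, 3 of 5, 2 of 6 and 1 of 7. The group of 7 spanned 409.9 kb on V, from 15710658 to 16120561. The most remote isolated peaks were in the outer parts of V and II. The first was a peak of 199 bp at 3195136 to 3195334 on V, with a score of 4.87, 192979 bp from the next peak on one side and 461641 bp on the other. A peak of 190 bp at 1819898 to 1820087 on II had no other within 150522 bp. The next were 2291689 to 2291972 (147343 bp), 18871982 to 18872138 (143540 bp) and 4336336 to 4336496 (141156 bp), all on V. Of these 5, only the V peak at 18871982 lay under a replicate peak, one of 1135 bp in replicate 2.

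Isolated peaks were spread over all 6 chromosomes in similar proportion. X held 139 of them, V 133, II 122, III 116, IV 107 and I 103. As a share of the peaks under 5000 bp they ran from 4.27% on I (95% interval 3.50 to 5.16) to 5.31% on V (4.46 to 6.26), with 4.30% on X. Intervals here are exact Clopper-Pearson binomial intervals, which take in counting error alone and assume that peaks are independent of one another. All 6 chromosome intervals overlapped one another. Per Mb of chromosome, the number of isolated peaks ran from 6.12 on IV to 8.42 on III, a narrower span than the 113 (V) to 180 (III) non-isolated peaks per Mb.

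Along the chromosomes, isolated peaks lacked the concentration in the centre that other peaks had. Each chromosome was divided into 3 equal parts. The middle part, or centre, held 222 of the 720 isolated peaks (30.8%, 95% interval 27.5 to 34.3) and 6730 of the 14827 non-isolated peaks (45.4%, 44.6 to 46.2). With non-isolated peaks weighted to the score classes of the isolated ones, their share in the centre was 46.2%. There were 6.65 isolated peaks per Mb in the centres and 7.46 in the outer parts, against 202 and 121 non-isolated peaks per Mb. The ratio of centre to outer density was 0.892 for isolated and 1.66 for non-isolated peaks. V showed the widest gap between the groups, with ratios of 0.891 for isolated and 2.63 for non-isolated peaks. X showed the smallest, 0.926 against 1.07. Chromosome II was the one on which isolated peaks were not sparser in the centre (ratio 1.09). Isolated peaks made up 3.19% of the peaks under 5000 bp in the centres (222 of 6952) and 5.79% in the outer parts (498 of 8595), with the highest share, 10.4%, on the left part of II. A peak is more often isolated where peaks are sparse, so these shares follow in part from the rule and are given without a test.

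**Figure D1:**
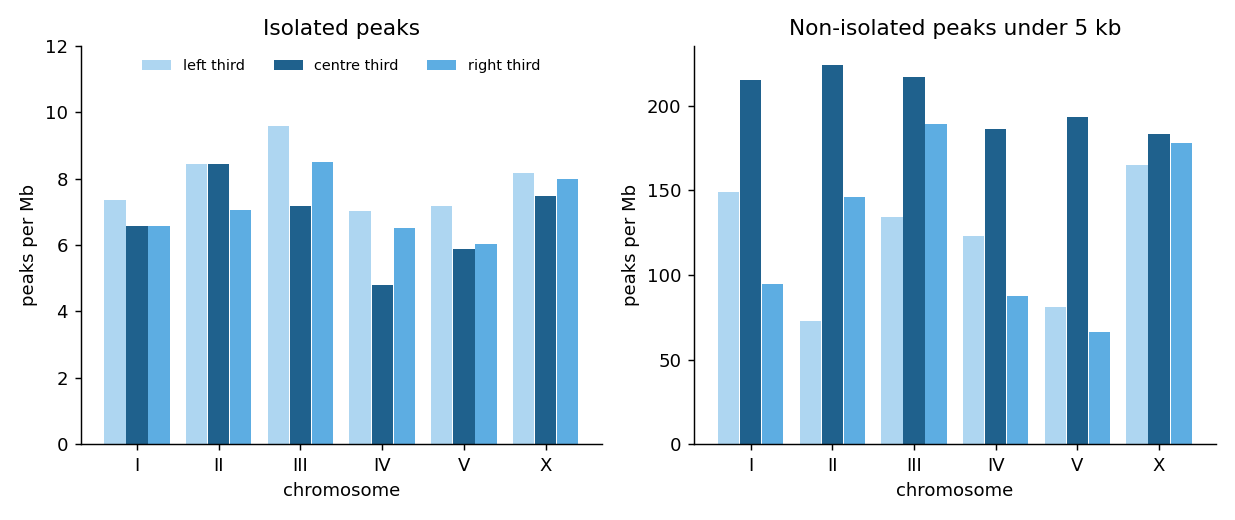
Peaks per Mb in the left, centre and right parts of each chromosome (3 equal parts), for isolated peaks (left panel) and non-isolated peaks under 5 kb (right panel), on separate axes. Isolated peaks lie between 4.80 and 9.58 per Mb in every part, while non-isolated peaks are densest in the centres, up to 224 per Mb on II.

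The chromosome tips stood out among these places, which was noticed after the values had been seen. Of the 12 chromosome ends, 6 had an isolated peak as their outermost series peak. An outermost peak needed an empty flank on its inner side only, so the rule favoured tips and this count carries no test. Those on I, II and X started at base 1 and were 444, 243 and 318 bp wide, with scores of 29.6, 20.9 and 10.8. Those on III, IV and V were the last series peaks of their chromosomes, at 13783385 to 13783731, 17493480 to 17493824 and 20923850 to 20924180, with scores of 14.1, 9.27 and 9.41. All 6 were in the highest score class. The tip of I lay under a replicate 1 peak, none of the other 5 under either list, and none of the 6 under a replicate 2 peak. The ends of worm chromosomes are telomeres, made of a short repeat, and whether reads map uniquely there was not tested.

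Most isolated peaks were short and low in score, but the group also held some of the highest-scoring peaks under 5000 bp. The score is the authors' peak caller's value, whose scale no source used here gives, and it was used only to rank peaks within a list. Isolated peaks had a median score of 4.58 (25% to 75% range 3.28 to 7.25, highest 77.9), against 5.49 (3.76 to 8.95, highest 85.6) for non-isolated peaks. Score classes were 4 equal parts cut over all 15547 nuclear peaks under 5000 bp, at 3.75, 5.50 and 8.96. The lowest class held 261 isolated peaks (36.2%), the second 191 (26.5%), the third 137 (19.0%) and the highest 131 (18.2%, 95% interval 15.4 to 21.2). Score and position come from the same list, so these shares carry no test.

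Median width was 218 bp for isolated and 325 bp for non-isolated peaks, and 76.2% of isolated against 45.2% of non-isolated peaks were under 300 bp. The difference in width was not only one of score. In the highest score class the median was 325 bp for isolated (25% to 75% range 248 to 472) and 828 bp for non-isolated peaks (516 to 1466). In the lowest class both were near the minimum of the list, at 188 and 205 bp. Of all series peaks under 5000 bp, the narrowest were 146 bp, a width that 25 isolated peaks shared. The widest isolated peaks were 4787 bp at 109478 to 114264 on X (score 23.4) and 3767 bp at 7444297 to 7448063 on III (score 26.4).

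Whether these sites recur was asked of the 2 replicate lists, which the rule did not use. A peak counted as found where a replicate peak overlapped it by at least 1 bp. Few isolated peaks were found: 31 of 720 in replicate 1 (4.31%, 95% interval 2.94 to 6.06) and 110 of 720 in replicate 2 (15.3%, 12.7 to 18.1). Over all 15761 nuclear series peaks the shares were 42.6% in replicate 1 and 65.7% in replicate 2. Only 13 isolated peaks (1.81%, 0.965 to 3.07) were found in both lists, against 36.2% of all nuclear series peaks. In neither list were 592 (82.2%, 79.2 to 84.9), against 27.8% of all. Another 18 were in replicate 1 alone and 97 in replicate 2 alone. Reads may be shared between the series and the replicate lists, so an overlap is no independent evidence of a site.

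The shortfall held at every level of score. In the lowest class 0.766% of isolated peaks were found in replicate 1 and 4.60% in replicate 2, against 20.7% and 49.7% of non-isolated peaks. In the highest class 15.3% of isolated peaks (20 of 131) were found in replicate 1 and 42.7% (56 of 131) in replicate 2, against 79.0% and 85.6% of non-isolated peaks. At the very top of the scores more isolated peaks were found. Of the 10 highest-scoring, 3 were in both lists, 4 in 1 and 3 in neither. Of the highest 50 (scores of 15.8 or more), 5 were in both, 28 in 1 and 17 in neither. Among non-isolated peaks of the whole highest class (scores of 8.96 or more), 71.3% were in both lists and 6.67% in neither.

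**Figure D2:**
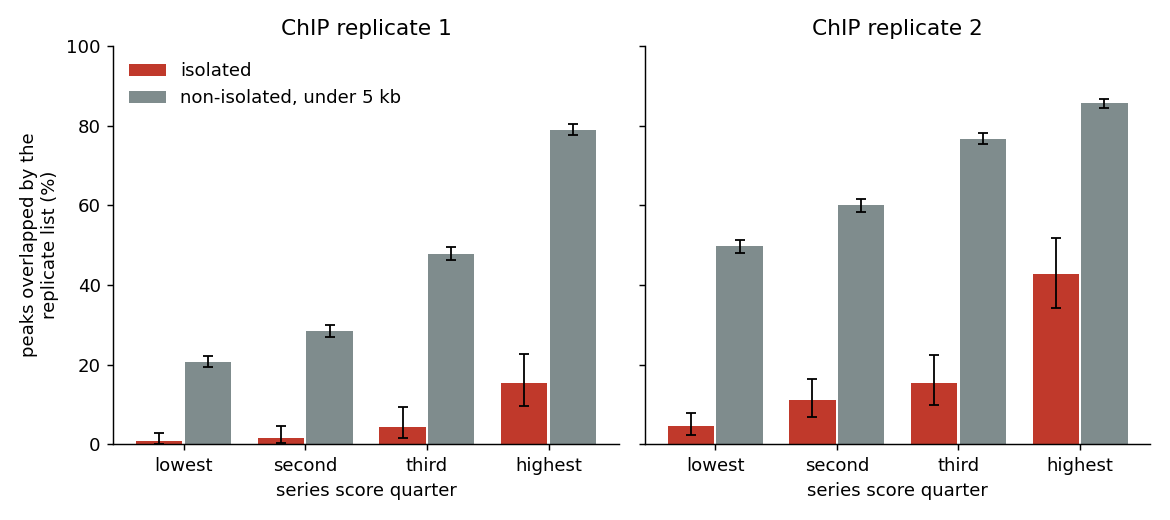
Percentage of series peaks overlapped by each replicate list, by class of series score, for isolated peaks and for non-isolated peaks under 5 kb; bars are shares with exact 95% binomial intervals. The isolated share lies below the non-isolated share in all 4 classes of both lists, from 0.766% against 20.7% to 42.7% against 85.6%.

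With non-isolated peaks weighted to the score classes of the isolated ones within each chromosome, the difference (isolated minus non-isolated) averaged -34.3 ± 2.66 percentage points in replicate 1 (SD over 6 chromosomes). In replicate 2 it averaged -48.8 ± 3.93 percentage points. Pooled over chromosomes, 4.31% of isolated against 38.5% of score-matched non-isolated peaks were found in replicate 1, and 15.3% against 64.1% in replicate 2. The difference was below 0 on 6 of 6 chromosomes in each list, from -37.8 to -31.1 points in replicate 1 and from -56.0 to -44.2 in replicate 2 (exact permutation test by sign flips of the chromosome differences, two-sided, p = 0.0312 for each, the smallest possible; 0.0312 after Benjamini-Hochberg adjustment over the 2 lists). Chromosomes of the same worms are not biological replicates, so this test speaks of these lists only. Score classes do not match width, and isolated peaks were narrower at like score. With matching by 4 classes of width as well as by score class, the mean difference shrank to -25.4 points in replicate 1 and -42.8 points in replicate 2 (exact sign-flip p = 0.0312 for each). The matched non-isolated shares were then 29.5% and 58.2%.

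The difference has to be read beside the shape of the replicate peaks. Replicate peaks over non-isolated peaks were wide, with medians of 1918 bp in replicate 1 and 1672 bp in replicate 2, and a median of 2 series peaks lay under each. One such peak makes all series peaks beneath it count as found, whereas each of the 31 and 110 replicate peaks over isolated peaks held 1 series peak. An alternative chosen after seeing the data counted only replicate peaks that overlap exactly 1 series peak. It takes away no isolated hit and most non-isolated hits, so its lower non-isolated shares, and with them the reversed direction, are largely built in. Under it, 4.31% of isolated and 3.79% of score-matched non-isolated peaks were found in replicate 1 (mean difference over chromosomes 0.41 points, below 0 on 3 of 6, exact sign-flip p = 0.812), and 15.3% against 7.59% in replicate 2 (7.97 points, below 0 on 1 of 6, exact sign-flip p = 0.0625). With only replicate peaks under 5000 bp the mean difference was -23.7 points in replicate 1 and -25.7 points in replicate 2 (exact sign-flip p = 0.0312 for each). Under reciprocal overlap of at least 50% it was -4.53 and -1.42 points (exact sign-flip p = 0.0312 for each), since a peak of about 200 bp inside one of about 1000 bp cannot meet that rule.

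The found share already varied widely with the distance to the nearest series peak below 5000 bp, and was near constant beyond it in replicate 1. Of peaks with a neighbour within 200 bp, 64.2% were found in replicate 1 and 84.8% in replicate 2. At 501 to 1000 bp the shares were 16.5% and 44.6%, and over 2000 and up to 5000 bp, still outside the isolated group, 6.57% and 24.3%. At 5001 to 10000 bp they were 4.04% (13 of 322) and 13.4% (43 of 322), at 10001 to 20000 bp 3.93% and 19.1%, and at 20001 to 50000 bp 5.46% and 16.9%. Of the 37 peaks farther than 50000 bp from any other, 1 was found in replicate 1 and 2 in replicate 2. These shares are not matched by score or width, and median width fell from 419 bp within 200 bp to 236 bp at 2001 to 5000 bp. Weighted to the isolated peaks' score classes, the shares were 55.7% and 83.1% within 200 bp. They were 8.85% and 27.9% at 2001 to 5000 bp, and 5.03% and 16.0% at 5001 to 10000 bp. Against non-isolated peaks over 2000 bp from their nearest neighbour alone, a comparison added after seeing the data, the score-matched difference was -3.88 points in replicate 1 and -11.8 points in replicate 2, below 0 on 6 of 6 chromosomes in each (exact sign-flip p = 0.0312).

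**Figure D3:**
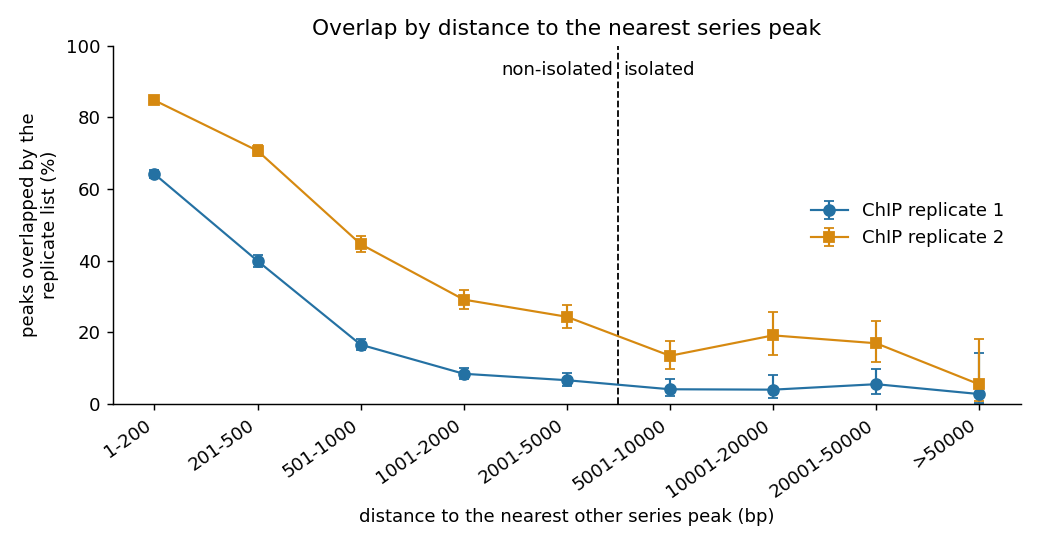
Percentage of series peaks under 5 kb overlapped by each replicate list, by the distance in bp to the nearest other series peak; points are shares with exact 95% binomial intervals, not matched by score or width, and the dashed line marks 5000 bp. The shares are 64.2% and 84.8% at the shortest distances and 6.57% and 24.3% just before the line, and vary between 2.70% and 19.1% after it.

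Where a replicate peak did lie over an isolated peak, it was narrow and low in its own list's ranking. The 31 replicate 1 peaks were 918 to 1612 bp wide (median 1095 bp), and the 110 replicate 2 peaks 784 to 1806 bp (median 1032 bp). Their median score stood at the 25.1 percentile of all replicate 1 peaks and at the 22.6 percentile of all replicate 2 peaks. Each held 1 series peak, and 30 of the 31 and 106 of the 110 were more than 5000 bp from the next replicate peak, both of which follow largely from the isolation of the series peaks. Conversely, most isolated replicate peaks were not isolated series peaks. Of 527 such peaks in replicate 1, 30 (5.69%) lay over an isolated series peak and 492 (93.4%) over non-isolated or broad series peaks only, 323 of the 527 holding 2 or more. In replicate 2, 106 of 616 (17.2%) lay over an isolated series peak, 483 (78.4%) over others only and 27 (4.38%) over none. Among all replicate peaks, isolated or not, 31 of 2587 in replicate 1 and 110 of 3714 in replicate 2 lay over an isolated series peak. Of replicate peaks that were not isolated in their own list, 1 of 2060 in replicate 1 (0.0485%) and 4 of 3098 in replicate 2 (0.129%) lay over an isolated series peak.

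The distance from isolated peaks that were not found to the nearest replicate peak was largely set by the rule. Nearly all replicate peaks lie over series peaks, and no other series peak is within 5000 bp of an isolated one, so these values are a description. The median distance to the nearest replicate peak was 30439 bp for the 689 not found in replicate 1 and 19818 bp for the 610 not found in replicate 2. For non-isolated peaks that were not found the medians were 2589 bp and 2003 bp. Within 5000 bp of a replicate peak lay 6 of the 689 (0.871%) and 22 of the 610 (3.61%), against 5321 of 8314 and 3302 of 4749 (69.5%) of the non-isolated ones. The found share was 5.41% in the centres and 3.82% in the outer parts in replicate 1, and 14.9% and 15.5% in replicate 2, with overlapping intervals. It was 17.3% in replicate 2 for isolated peaks beside another isolated peak and 12.5% for those with no isolated peak as a direct neighbour, again with overlapping intervals.

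The X chromosome departed from the autosomes in which list found its isolated peaks, a pattern singled out after its values were seen and given without a test. Both lists departed, in opposite directions: replicate 2 found a smaller share on X than on the autosomes, and replicate 1 a larger one. Over all scores, the intervals of X and the autosomes were apart in replicate 2 and overlapped in replicate 1. The title of the replicate 2 list includes csr1, and whether that bears on X was not tested. On X replicate 2 found 8 of 139 (5.76%, 95% interval 2.52 to 11.0) and replicate 1 found 12 (8.63%, 4.54 to 14.6). On every autosome replicate 2 found more isolated peaks than replicate 1, between 15.0% and 18.4% in replicate 2 and between 1.72% and 3.88% in replicate 1. Over the autosomes together the shares were 17.6% (102 of 581, interval 14.5 to 20.9) in replicate 2 and 3.27% (19 of 581, 1.98 to 5.06) in replicate 1. In the highest score class, replicate 2 found 3 of the 26 isolated X peaks (11.5%) and 53 of the 105 on autosomes (50.5%), while replicate 1 found 9 (34.6%) and 11 (10.5%). Isolated peaks of X and of autosomes had the same median score of 4.58, and median widths of 227 and 214 bp. Of non-isolated peaks, 66.4% on X and 68.4% on autosomes were found in replicate 2, and 45.8% and 43.4% in replicate 1.

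**Figure D4:**
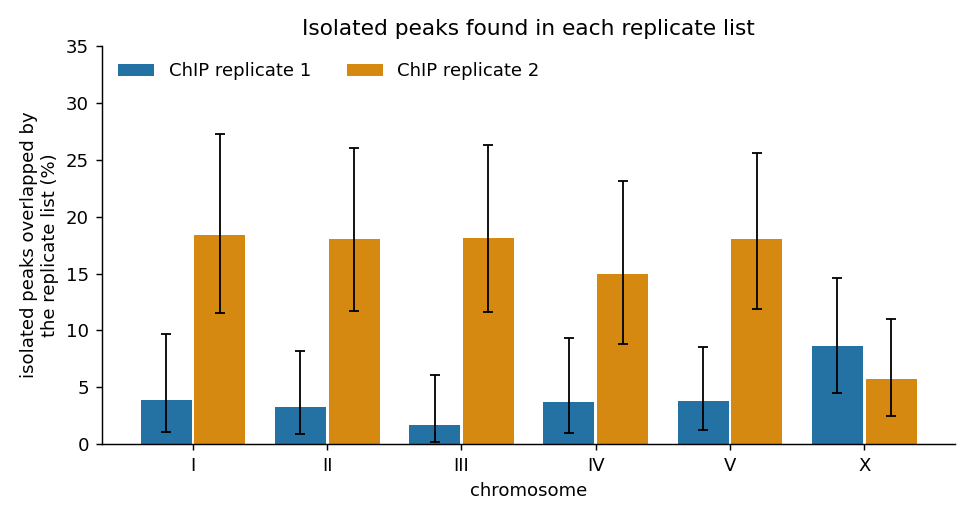
Percentage of isolated peaks overlapped by each replicate list on each chromosome; bars are shares with exact 95% binomial intervals. On X replicate 2 stands below replicate 1, at 5.76% and 8.63%, and on I to V it stands above it, at 15.0% to 18.4%.

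The 10 isolated peaks with the highest series score among those in both lists were on II (2), III (2), IV (2), V (1) and X (3). The strongest was 395 bp wide at 4783798 to 4784192 on IV, with a score of 77.9 and empty flanks of 32621 and 294732 bp. It lay under a replicate 1 peak of 1171 bp (score 336 in that list) and a replicate 2 peak of 1163 bp (score 2148). The second, 1035 bp at 6551174 to 6552208 on III, scored 72.0, and its replicate 2 peak had a score of 3100, at the 94.3 percentile of that list. The third, 593 bp at 11534422 to 11535014 on II, scored 34.5 in the series list. Its replicate 1 peak scored 58.7, at the 9.55 percentile, and its replicate 2 peak 1959, at the 82.2 percentile. The lists thus ranked this site very differently.

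The 3 X sites began at 6296322 (score 25.4), 13700588 (21.8) and 7264704 (10.6). The others began at 8820749 on V (11.9), 4378837 on III (11.7), 12306839 on IV (11.2) and 3682386 on II (9.72). Over these 7 sites the replicate 1 scores ran from 52.1 to 147 and the replicate 2 scores from 61.2 to 235, below the list medians of 149.5 and 323. The remaining 3 peaks found in both lists were at 8862846 and 15710658 on V and at 7313949 on I. The first of these lay 41772 bp from the site at 8820749, each being the other's neighbour on one side.

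Strong and comparatively wide isolated peaks were mostly missed by both replicate lists, which was noticed after the values had been seen. The found share grew with width up to 1000 bp and not beyond. Of 302 isolated peaks under 200 bp, 290 (96.0%) were in neither list, of 379 from 200 to under 500 bp 288 (76.0%), and of 27 from 500 to under 1000 bp 4 (14.8%). Non-isolated peaks of the same widths were in neither list in 48.2%, 28% and 5.02% of cases. The rise with width up to 1000 bp was thus not particular to isolated peaks. Of the 12 isolated peaks of 1000 bp or more, 10 (83.3%) were in neither, although 11 of the 12 were in the highest score class and their median score was 25.8. Among non-isolated peaks of 1000 bp or more, 85 of 1717 (4.95%) were in neither list, at a lower median score of 15.9.

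The 5 strongest isolated peaks in neither list were all of this kind. They were 3357 bp at 291949 to 295305 on X (score 33.8), 2464 bp at 5283271 to 5285734 on V (33.0), 3660 bp at 15807509 to 15811168 on X (30.1), 1050 bp at 5056190 to 5057239 on X (29.9) and 3767 bp at 7444297 to 7448063 on III (26.4). In that order, replicate 1 had its nearest peak 134550, 6460, 97115, 6322 and 61921 bp away, and replicate 2 had its nearest 26445, 5327, 29514, 20424 and 52422 bp away. Of the 12 wide isolated peaks, 4 were on X, all in neither list. Whether repeated sequence or differences in calling between the lists bear on these sites was not tested.

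**Figure D5:**
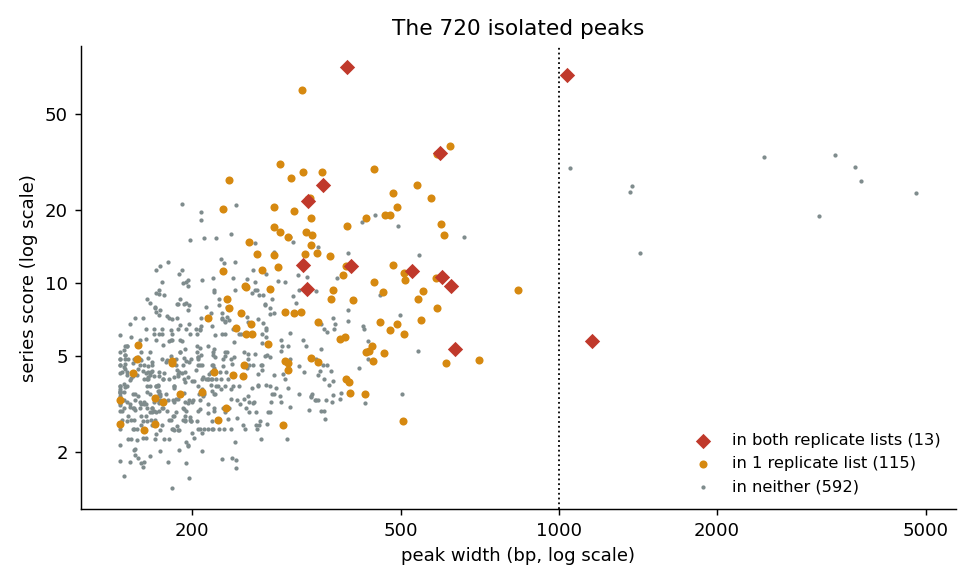
Width in bp against series score, both on log scales, for each of the 720 isolated peaks, marked by whether both, 1 or neither of the replicate lists overlaps it; the dotted line marks 1000 bp. Right of the line 10 of 12 peaks are in neither list, while between 500 and 1000 bp 4 of 27 are.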

How the data were processed

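The deposited files are 3 peak lists of COH-1 ChIP-seq, 1 per ChIP replicate and 1 for the series. The submitters' processing notes name BWA and ce10; per the file headers the build is WormBase WS220, and the source column names MACS (replicate lists) or MACS v2 (series list). Each peak carries a score deposited by the authors (scale, thresholds, use of inputs and pooling: not given in the sources used here). Lists were re-analysed with Python 3.11.15, NumPy 2.4.6, pandas 2.3.3, SciPy 1.17.1 and Matplotlib 3.10.9. Distances are bases between peaks, and a chromosome's length is its largest deposited peak end (100.2 Mb in all). Non-isolated peaks were weighted to the isolated peaks' score classes, and shares compared by an exact sign-flip permutation test over 6 chromosomes. Overlap and weighting were tested on simulated data. The simulated replicate peaks had the same bounds as series peaks and none spanned several of them, so the effect of wide replicate peaks was not simulated. Named peaks were the 10 highest-scoring isolated peaks in both lists, the 5 highest in neither, the 5 most remote and those nearest the limits; others were named after their values were seen. The members and tests were chosen with earlier results of these data known. Gene and sequence features, though planned, were not examined: the gene table at hand is on another build. No broad peak was isolated, so none could be named at the width limit.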

Additional observations from a re-analysis of the deposited data

Results flagged for a closer look

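The mitochondrial genome carries 4 series peaks, outside the 6 chromosomes to which isolated peaks were limited. They are 2102 to 4095 bp wide, and each lies at most 351 bp from its nearest neighbour, so none would have been isolated.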

How the results depend on the processing

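Of 38 alternatives to the overlap differences, 32 kept the direction and the smallest p that the exact permutation test allows (0.0312), so that p says little about stability. With replicate peaks holding exactly 1 series peak the difference reversed to 0.41 points in replicate 1, 7.97 in replicate 2 and 4.19 for the mean of both lists, largely by construction, since that setting removes most non-isolated hits and no isolated one. On the 5 autosomes alone, where p cannot go below 0.0625, it was -34.9, -47.3 and -41.1. The mean of both lists (-41.5) ran from -48.8 to -34.3 with either replicate left out. It was -52.7 when series peaks with scores in the lower 50% were left out, and then 4.48% of isolated peaks were in both lists, 29.5% in 1 and 66.0% in neither. Under reciprocal overlap these shares were 0.556%, 1.25% and 98.2%, and 2 of the 10 named peaks stayed in both lists, 4 in 1 and 4 in neither. Isolation distances of 2000 and 10000 bp gave 1466 and 398 isolated peaks in place of 720. As a share of all peaks under 5000 bp, isolated peaks then made up 7.55% and 1.65% in the centres (3.19% as reported), 10.9% and 3.29% in the outer parts (5.79%) and 10.6% and 3.11% on V (5.31%), the highest chromosome each time. At 2000 bp the median width was 225 bp, 19.3% were in 1 list and 77.7% in neither. The share in the outer parts was 6.44% with outer parts of 25% each and 6.39% with a width limit of 1000 bp. No paired analysis was possible because the inputs, which share the ChIP samples' replicate numbers, enter no comparison. Depth is unknown, so a peak absent from a list was not called there, which does not show absence of binding.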
